A study of Mus musculus with 9 samples.

Results

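Touchdome keratinocytes were compared with keratinocytes of the interfollicular epidermis (IFE) by poly(A) RNA-seq of mouse back skin. The comparison used 6 of the 9 libraries of the series, 3 Touchdome and 3 IFE, chosen by the group in their labels, and covered every gene in the deposited table. All groups came from C57BL/6 mice at postnatal day 60 with the genotype TNC-CREER; tdTomato, in which an inducible Cre recombinase named for the Tenascin-C gene (Tnc) switches on a red reporter. Every mouse, those behind the IFE and HF libraries included, had received tamoxifen at 100 µg per g of body weight on postnatal days 51 and 52. Both compared populations were positive for EPCAM, SCA1 and integrin α6, and they differed in the gate by the reporter alone, which was present in Touchdome and absent in IFE. The 3 HF (hair follicle) libraries, positive for EPCAM and integrin α6 but without SCA1 and reporter, contributed to the estimate of the spread, and their levels are given side by side. The reporter marks cells in which recombination took place, so touch dome cells without recombination would have entered the IFE gate, and their number was not measured. No label ties the libraries of a group to separate animals. The p-values rest on the spread among libraries alone, which may be technical.

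Touch domes are small epidermal patches beside guard hair follicles, in which specialised keratinocytes lie over Merkel cells that are contacted by touch-sensitive nerve fibres. Their keratinocytes are known for Krt17 and for Gli1, a target and effector of the Hedgehog pathway. In that pathway a ligand binds a Patched receptor, which releases Smoothened, and GLI transcription factors then switch on targets that include Gli1 and Ptch1. Tenascin-C is a matrix glycoprotein of mesenchyme and of some epithelia. Levels below are CPM (the usual per-million measure of counts relative to library size), differences are log2 fold changes of Touchdome minus IFE with their standard error (SE), and adjusted p-values come from edgeR over all genes tested, with a call below 0.05. TPM, which is scaled by gene length, is used where levels of different genes are set beside each other.

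The genes named for touch dome cells were higher in all 3 Touchdome libraries. Tnc (ENSMUSG00000028364) stood at 200.4, 282 and 288 CPM in Touchdome replicates 1 to 3 and at 6.10, 1.13 and 7.16 CPM in IFE replicates 1 to 3. The groups did not overlap, and IFE replicate 2 was the lowest, but the Cre behind the gate is named for this gene, and its difference (5.68 ± 0.54, SE, adjusted p = 0.00322) checks the gate only. Krt17 (ENSMUSG00000035557), which encodes a keratin of follicles, touch domes and wounds, was at 1526, 1883 and 1671 CPM in Touchdome against 255, 268 and 311 CPM in IFE. Its Touchdome libraries lay close together and far above IFE, with a log2 fold change of 2.60 ± 0.15 (adjusted p = 2.33e-06). Gli1 (ENSMUSG00000025407) was at 51.98, 94.4 and 76.9 CPM against 1.37, 2.46 and 2.57 CPM, again without overlap (5.11 ± 0.37, adjusted p = 0.000208). Cd200, a surface glycoprotein also known from the bulge, was at 17.0, 24.0 and 32.9 CPM against 7.79, 10.5 and 7.80 CPM (1.51 ± 0.23, adjusted p = 0.00697), so 4 of 4 touch dome markers were called. These markers were chosen for this population and are not independent evidence of a direction. The other gate genes did not pass the test: Ly6a, which encodes SCA1, was at 140.5, 131 and 104 CPM in Touchdome and 112, 168 and 179.6 CPM in IFE (adjusted p = 0.8). Itga6 and Epcam gave adjusted p = 0.446 and 0.728, and their groups overlapped. HF libraries held 1722, 1655 and 1373 CPM of Krt17, 145, 98.2 and 197 CPM of Gli1 and 40.6, 56.9 and 54.0 CPM of Tnc, so only Tnc of these was higher in every Touchdome library than in every HF library.

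Total expected counts were 10735431 to 15477297 in Touchdome and 14647371 to 28249763 in IFE, so that 0 counts allow at most 0.268 CPM in the shallowest of the 6 libraries and 0.114 CPM in the deepest. These limits cover counting error only. Across the 15046 genes tested, Pearson's r of log2 CPM, over genes that are not independent replicates, was 0.972 to 0.976 within Touchdome, 0.972 to 0.987 within IFE and 0.953 to 0.978 between the groups. The first principal component of the 6 libraries held 39.1% of the variance and separated the groups. IFE replicate 2 lay at 44.8 on it against 22.5 and 13.6 for the other IFE libraries, and Touchdome replicate 3 at -47.1 against -19.7 and -14.1. The r of Touchdome replicate 3 with the HF libraries was 0.932 to 0.94 against 0.903 to 0.915 for the other Touchdome libraries. Some results that rest on it are therefore given with and without it.

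The Touchdome libraries differed from IFE mainly by genes that were higher. Of 15046 genes tested, 184 were called higher in Touchdome (1.22%) and 12 lower (0.0798%), together 1.30%. At least 2-fold changes made up 170 of the higher genes (1.13%) and 2 of the lower (0.0133%). The 3 and 3 libraries did not overlap for any of the 184 or the 12, whereas over all tested genes 8.32% lay entirely higher and 6.27% entirely lower. Unadjusted p-values below 0.05 were reached by 6.96% of tested genes in the higher and 3.71% in the lower direction. The called higher genes had a median log2 fold change of 3.01, from 0.59 to 9.55, and the lower genes of -0.72, from -0.52 to -1.04. The higher genes were mostly of low abundance, with a median of 3.74 TPM in Touchdome and 0.518 TPM in IFE, against a median of 16.3 TPM over all tested genes. The 12 lower genes had a median of 92.2 TPM in IFE.

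Each count depended on the libraries and on the tool. Without IFE replicate 1 the higher count was 105, and leaving out IFE replicate 3 gave 124 and Touchdome replicate 3 gave 155, of which 139 were among the 184. The lower count was 4 without IFE replicate 3, 7 with Touchdome replicate 1, IFE replicate 1 or HF replicate 3 left out, 8 without Touchdome replicate 3 or HF replicate 2, and 29 without IFE replicate 2. In all, 81 higher and 3 lower genes kept the call with each of the 9 libraries left out in turn. With the replicate number as a block, since libraries of the same number deviated together, 282 genes were called higher (1.87%) and 67 lower (0.445%), and these held 183 of the 184 and all 12. DESeq2 called 446 higher and 84 lower. Without the HF libraries in the fit 100 were higher and 5 lower, and these held 95 of the 184 and 3 of the 12. Of the 184 genes, 121 had their highest level in Touchdome replicate 3, 46 in replicate 2 and 17 in replicate 1. In 35 of them replicate 3 was at least 2-fold above both other Touchdome libraries, and the median levels of these 35 were 2.37, 2.32 and 7.89 CPM in Touchdome replicates 1 to 3, 0.311 CPM in IFE and 25.4 CPM in HF.

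**Figure D1:**
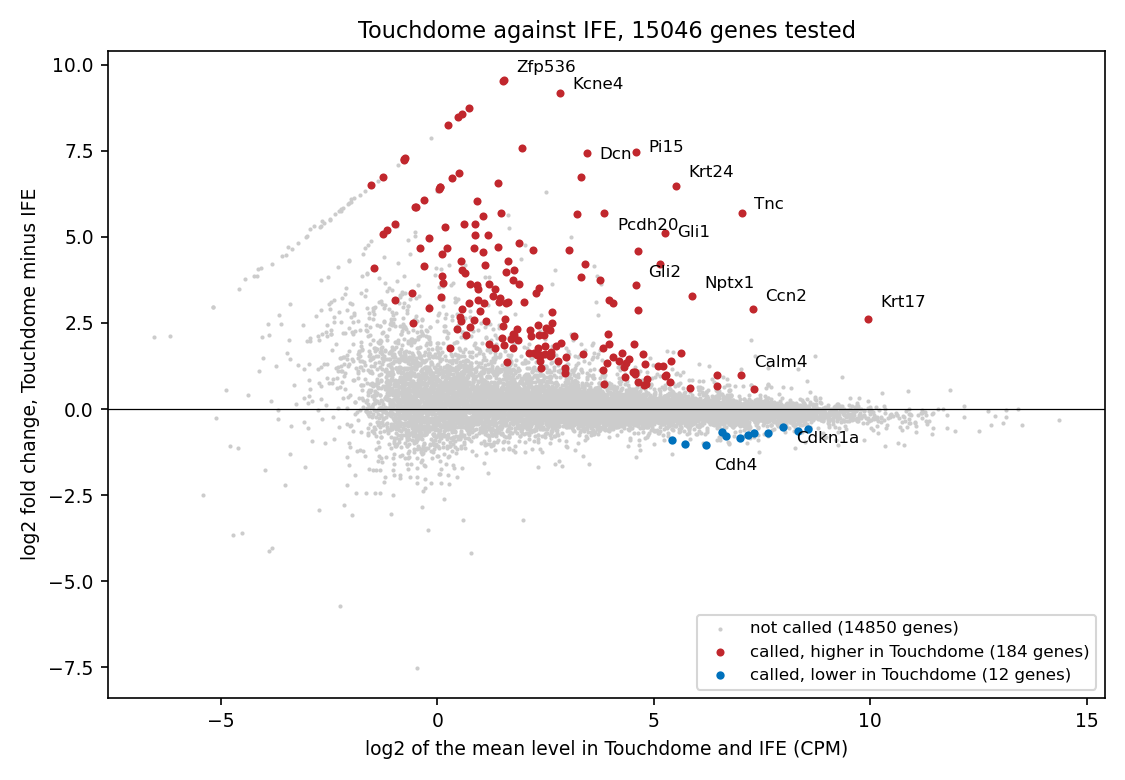
Log2 fold change of Touchdome minus IFE (vertical axis) against the log2 of the mean CPM over both groups (horizontal axis), 1 point per gene with a count in either group, red and blue for the 184 and 12 called genes. Called higher genes reach 9.55 at low levels, while the called lower genes all lie between -0.52 and -1.04 at high levels.

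The GLI factors Gli1 and Gli2 and the Hedgehog receptor and co-receptor genes Ptch1 and Gas1 were higher in Touchdome. Of 14 listed genes 11 passed the filter on low counts, and the 3 ligands Shh, Ihh and Dhh did not. Of the 11, 4 were called higher and 0 lower, against 1.22% and 0.0798% of all genes tested, and the median log2 fold change was 0.28. Gli2 (ENSMUSG00000048402), a transcription factor that carries the pathway's activating signal, was at 34.1, 51.7 and 46.9 CPM in Touchdome and 3.74, 2.88 and 4.16 CPM in IFE. Every Touchdome library was far above every IFE library, and the log2 fold change was 3.60 ± 0.19 (adjusted p = 1.8e-06). Ptch1, the main Patched receptor, was present in both groups at 47.2, 52.4 and 53.1 CPM and 25.5, 24.4 and 27.9 CPM, without overlap (0.97 ± 0.19, adjusted p = 0.023). Gas1, a co-receptor, had the tightest values of the group, 193, 187 and 193 CPM against 133, 124 and 124 CPM (0.59 ± 0.11, adjusted p = 0.0148). The remaining tested genes did not pass the test. Smo, which encodes Smoothened, was at 189 ± 9.68 and 181 ± 11.9 CPM (mean ± SD, n = 3 each), Sufu at 40.1 ± 1.58 and 37.2 ± 3.97 CPM, and Gli3, whose protein mainly represses targets, at 35.8 ± 4.82 and 30.7 ± 9.46 CPM. Hhip, a ligand-binding antagonist and pathway target, was at 0.320, 0.179 and 0.581 CPM against 0, 0 and 0.0757 CPM (adjusted p = 0.0789), which lies near the counting limit. Without Touchdome replicate 3 the called genes were 2, since Ptch1 and Gas1 reached adjusted p = 0.077 and 0.0528. Ptch1 also lost its call without Touchdome replicate 2 (0.0616) and without IFE replicates 1 (0.111), 2 (0.0968) or 3 (0.0675). Gas1 also lost its call without IFE replicate 3 (0.0799), while Gli1 and Gli2 kept theirs without each library. The libraries are bulk samples, so more cells of a type and more RNA per cell cannot be told apart for these or any later genes.

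The promoters of 4 genes that rose are shown because they cover the gate gene, a GLI factor, a keratin and the gene with the greatest fold among those above 10 CPM. Each is the 250 bases upstream of a RefSeq transcript start in build GRCm38.p6, read 5′ to 3′ in the direction of the gene, at chr4:64047016-64047265 (minus strand) for Tnc, chr1:119053620-119053869 (minus) for Gli2, chr11:99285263-99285512 (minus) for Krt24 and chr1:78816661-78816910 (plus) for Kcne4. Capitals mark matches to TATAAA, to the GC box GGGCGG or to the GLI motif GACCACCCA, each searched on both strands.
Tnc: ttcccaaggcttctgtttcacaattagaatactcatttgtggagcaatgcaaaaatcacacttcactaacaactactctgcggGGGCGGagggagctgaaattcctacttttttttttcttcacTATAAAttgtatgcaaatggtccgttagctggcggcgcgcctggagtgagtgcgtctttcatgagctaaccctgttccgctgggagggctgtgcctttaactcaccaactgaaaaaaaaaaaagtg
Gli2: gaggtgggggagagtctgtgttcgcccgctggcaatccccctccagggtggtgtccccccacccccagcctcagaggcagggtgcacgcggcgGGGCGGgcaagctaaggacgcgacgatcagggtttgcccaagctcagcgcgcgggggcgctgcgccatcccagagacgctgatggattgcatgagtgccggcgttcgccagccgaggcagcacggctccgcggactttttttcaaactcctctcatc
Krt24: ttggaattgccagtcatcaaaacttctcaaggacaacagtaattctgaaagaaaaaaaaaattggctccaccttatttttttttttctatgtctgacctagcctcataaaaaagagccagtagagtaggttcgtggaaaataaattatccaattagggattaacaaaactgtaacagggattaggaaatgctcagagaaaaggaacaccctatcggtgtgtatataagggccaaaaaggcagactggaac
Kcne4: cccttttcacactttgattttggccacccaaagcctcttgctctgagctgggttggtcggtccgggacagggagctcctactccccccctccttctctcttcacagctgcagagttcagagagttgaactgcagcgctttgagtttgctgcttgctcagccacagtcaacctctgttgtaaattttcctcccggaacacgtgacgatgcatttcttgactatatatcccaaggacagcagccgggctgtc
Of the 184 higher genes, 141 matched the promoter table by symbol, with 182 windows. The letters GACCACCCA were in 0 of these windows, in 0.183% of those of tested genes and in 0.225% of the 32851 windows of all genes. The match is so rare that 0 in 182 windows cannot tell higher genes from others. TATAAA was in 7.69% of the windows of higher genes, 6.65% of those of tested genes and 12.4% of all, and GGGCGG was in 45.1%, 56.3% and 32.7%. These are matches of letters in a short window and not binding sites.

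The higher genes with the greatest fold at 10 CPM or more were of several kinds. Kcne4 (ENSMUSG00000047330), a subunit that modulates potassium channels, was at 11.3, 19.04 and 12.0 CPM in Touchdome against 0, 0 and 0.0379 CPM in IFE, which is 535 counts against 1. The ratio of summed counts was 821, with an exact 95% counting interval of 147 to 32479, and HF libraries were also low at 0.137, 0 and 0.590 CPM. Such intervals, and folds given below as at least a value, cover counting error in summed counts and not the spread between libraries. Pi15, a secreted protease inhibitor, was at 48.7, 49.6 and 44.8 CPM against 0, 0 and 0.606 CPM (7.48 ± 0.52, adjusted p = 0.000182). Dcn, which encodes the matrix proteoglycan decorin, was at 23.8, 25.3 and 16.4 CPM against 0.316, 0 and 0.0379 CPM (7.44 ± 0.61, adjusted p = 8.84e-05). Both genes were almost silent in IFE, but HF libraries held 105, 105 and 103 CPM of Pi15 and 0, 0 and 0.0655 CPM of Dcn. Krt24, a keratin of the follicle bulge, was at 63.8, 103 and 103 CPM against 0.421, 1.90 and 0.871 CPM, and its lowest Touchdome library was still far above the highest IFE library (6.48 ± 0.38, adjusted p = 7.24e-05). Pcdh20, a protocadherin of cell contacts, was at 27.0, 38.8 and 19.8 CPM against 0.368, 0.492 and 0.719 CPM (5.69 ± 0.44, adjusted p = 0.000139). Tgm5, a transglutaminase of cornifying keratinocytes, was at 44.7, 58.5 and 98.7 CPM against 3.05, 2.60 and 4.92 CPM (4.21 ± 0.41, adjusted p = 0.00243). Each of these 6 genes kept the call with each library left out in turn. By length-scaled level the most abundant called genes were Krt17, with a mean of 2068 TPM in Touchdome against 307 TPM in IFE, the calcium-binding gene Calm4 (403 against 184 TPM), Ccn2 (216 against 25.1 TPM) and Gas1 (115 against 69.4 TPM).

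**Figure D2:**
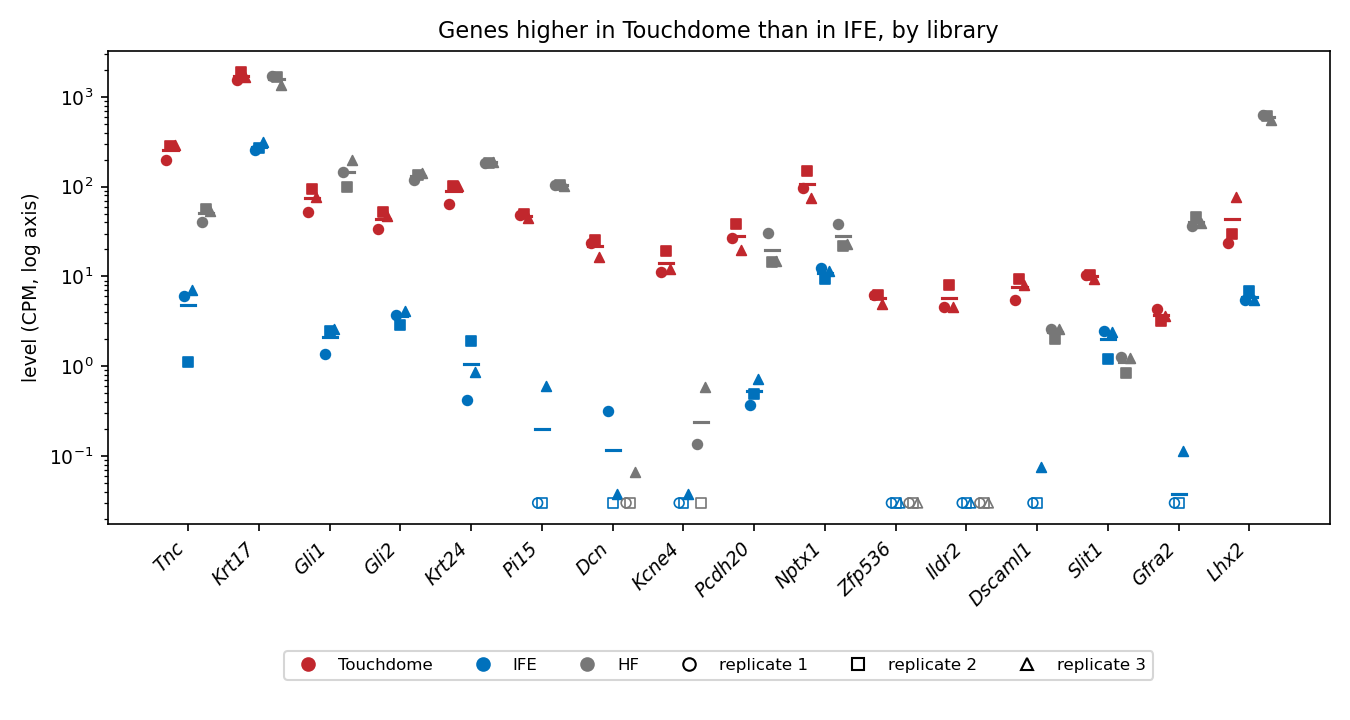
Level in each library (vertical axis, CPM on a log scale) of 16 genes called higher in Touchdome, with circles, squares and triangles for replicates 1, 2 and 3 and short lines for group means; open symbols mark libraries below 0.03 CPM, drawn at that level. Zfp536 and Ildr2 have no count in any IFE or HF library, whereas Lhx2 and Gfra2 are higher in HF than in Touchdome.

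Some of the higher genes had no count at all in IFE. There were 11 such genes, and a further 19 with 1 to 3 counts over the 3 IFE libraries. With so few IFE counts a gene passed the filter on low counts only through Touchdome or HF libraries. The direction of these genes, here and in other paragraphs, is therefore not evidence on its own. How many of all tested genes had no IFE count was not determined. Zfp536 (ENSMUSG00000043456), a zinc finger gene known as a repressor of neuronal differentiation, was at 6.27, 6.26 and 4.90 CPM in Touchdome, and its 227 counts make it at least 116-fold higher against 3 counts over the IFE group. Ildr2 (ENSMUSG00000040612), of the angulin family of tricellular junction proteins, was at 4.60, 8.13 and 4.57 CPM, at least 111-fold higher. Both were at 0 in all 3 HF libraries as well. Ccer2 and Fat3, an atypical cadherin, were at least 61.4-fold and 57.8-fold higher. Crispld1, a secreted cysteine-rich protein gene, was at least 57.3-fold higher, with 23.9, 21.4 and 29.0 CPM in HF. Ppp1r1c, a phosphatase inhibitor gene, had 6.07, 7.51 and 2.08 CPM in Touchdome and 3 counts in IFE. The ratio was 104 (95% counting interval 35.2 to 510.1), and HF libraries held 0. These 6 genes kept the call without each library in turn.

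Transcription regulators other than the GLI factors were among the higher genes. Of 70 listed homeobox genes 45 were tested and 6 were called higher and 0 lower, against 1.22% and 0.0798% of all tested genes, with a median log2 fold change of 0.41 over the tested members against 0.0048 over all tested genes. Lhx2, a LIM homeobox gene of follicle stem cells, was at 23.7, 29.6 and 77.3 CPM against 5.42, 6.89 and 5.53 CPM, with replicate 3 far above the others and HF at 634, 607 and 553 CPM. Its log2 fold change was 2.88 ± 0.44 (adjusted p = 0.0213, and 2.9e-05 without Touchdome replicate 3), and the call was lost when any of IFE replicates 1, 2 and 3 and HF replicate 3 was left out (adjusted p = 0.0554 to 0.143). Dlx3, needed for hair and cornifying layers, was at 3.39, 6.26 and 4.82 CPM against 1.16, 1.06 and 0.530 CPM (2.41 ± 0.37, adjusted p = 0.00582), and Dlx2 was at 1.92, 2.23 and 6.39 CPM against 0.316, 0.352 and 0.265 CPM (3.48 ± 0.54, adjusted p = 0.00605). Hoxd4 was at 1.15, 1.25 and 3.82 CPM against 0.0526, 0.0703 and 0.114 CPM (4.50 ± 0.64, adjusted p = 0.004). These 3 kept the call without each library, whereas Hoxd8 (3.95 ± 0.79, adjusted p = 0.0481) lay just inside the threshold and lost the call when any of IFE replicates 1, 2 and 3 and HF replicates 1, 2 and 3 was left out (adjusted p = 0.0657 to 0.186). Zfhx3 completed the list, at 10.4, 4.74 and 11.0 CPM against 2.42, 1.90 and 2.95 CPM (adjusted p = 0.019), a call lost when any of Touchdome replicates 1 and 3 and IFE replicates 1 and 2 was left out (adjusted p = 0.0597 to 0.0887). The 26 tested SOX, FOX, T-box and GATA genes had 0 calls with edgeR and 2 higher with the replicate block, against 1.87% of all tested genes. At an unadjusted p under 0.05, 6 were higher and 0 lower, against 6.96% and 3.71%. DESeq2 called 4 higher, against 446 of 15046. Bhlhe41, a repressor of the circadian clock family, was the call among 33 tested helix-loop-helix and nuclear receptor genes, at 5.75, 6.61 and 9.71 CPM against 1.16, 1.90 and 1.44 CPM (2.30 ± 0.32, adjusted p = 0.00344). Outside the lists, and chosen after the values were seen, Zfpm2, a GATA cofactor, was at 3.20, 6.44 and 3.40 CPM against 0.105, 0.211 and 0.0757 CPM (5.06 ± 0.92, adjusted p = 0.0165) with 0.503, 0 and 0.0655 CPM in HF, and lost the call without IFE replicate 1 (0.0768), IFE replicate 3 (0.0785) or Touchdome replicate 2 (0.0594). Peg3, a zinc finger gene and the call among 13 tested imprinted growth regulators, was at 7.86, 8.22 and 12.5 CPM against 2.21, 2.04 and 1.40 CPM (2.35 ± 0.23, adjusted p = 0.000208).

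Genes of nerve growth, guidance and contact changed in both directions. Among 18 tested neurotrophin and GDNF family genes, of 20 listed, 3 were called higher and 1 lower, against 1.22% and 0.0798% of all tested genes. Gfra2, the receptor subunit for neurturin, was at 4.35, 3.22 and 3.65 CPM against 0, 0 and 0.114 CPM. Its 148 counts against 3 gave a ratio of 75.7 (95% counting interval 25.4 to 371). Ntrk3, the receptor for neurotrophin-3, was at 1.15, 2.50 and 2.57 CPM against 0, 0 and 0.0379 CPM, or 77 counts against 1. Both receptors were near silent in IFE and kept the call without each library, and HF held 36.6, 46.4 and 39.9 CPM of Gfra2 but 0.594, 0.316 and 0.655 CPM of Ntrk3. Sort1, the sorting receptor sortilin, rose from 18.2 ± 2.23 to 31.7 ± 2.98 CPM (mean ± SD, n = 3 each, adjusted p = 0.0171), a call lost without IFE replicate 3 (0.0825) or Touchdome replicate 3 (0.0679). The lower gene was Ngfr, the low-affinity neurotrophin receptor, whose values stand with the other lower genes. The ligands did not pass the test: Ntf3 was at 9.01, 11.0 and 10.8 CPM in Touchdome and 11.9, 20.1 and 11.6 CPM in IFE (adjusted p = 0.465), and Gdnf at 31.1, 32.4 and 22.7 and 40.4, 43.1 and 40.8 CPM (adjusted p = 0.144). Bdnf had 0.511, 0.268 and 1.66 CPM against 0, 0.211 and 0.0379 CPM (adjusted p = 0.0885), near the counting limit. Ntrk2, the receptor for the Bdnf product, was at 182 ± 18.5 and 176 ± 27.7 CPM.

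Of 38 tested guidance genes 2 were called higher and 1 lower, against 1.22% and 0.0798% of all tested genes, and with the replicate block 4 were higher, against 1.87%. Slit1, a secreted repellent of growing axons, was at 10.4, 10.3 and 9.46 CPM against 2.47, 1.20 and 2.42 CPM, and HF libraries stood at 1.28, 0.843 and 1.25 CPM (2.29 ± 0.35, adjusted p = 0.00555). Unc5c, a netrin receptor, had 47 counts in Touchdome and 0 in IFE, at least 24.0-fold higher. The lower gene was Sema3c, a secreted semaphorin, whose values stand with the other lower genes. Of 42 listed neuronal adhesion and synapse genes only 16 passed the filter, and 1 was called higher (1.22% of all tested genes). At an unadjusted p under 0.05, 5 were higher and 1 lower, against 6.96% and 3.71% of all tested genes. The called gene was Lrrtm1, a synaptic organiser, with 2.37, 3.84 and 0.913 CPM in Touchdome and no count in IFE. It lost the call without IFE replicate 1 (adjusted p = 0.0571) or IFE replicate 3 (0.0617). Further genes known from neurons were called and are grouped here after their values were seen. Nptx1, a secreted pentraxin of synapses, was at 97.8, 149 and 75.7 CPM against 12.4, 9.36 and 11.4 CPM and had the highest level of them (3.27 ± 0.30, adjusted p = 0.000597). Dscaml1, an adhesion protein of the immunoglobulin family, had 290 counts against 2, a ratio of 222 (95% counting interval 61.0 to 1846). Sdk1, a sidekick adhesion protein, was at 6.90, 7.24 and 7.31 CPM against 2.00, 2.46 and 2.50 CPM with little spread (1.62 ± 0.22, adjusted p = 0.00322). Dlg4, the scaffold PSD-95, was at 4.67, 5.45 and 7.89 CPM against 0.894, 1.41 and 1.25 CPM (2.34 ± 0.31, adjusted p = 0.00243). Cadm3, a nectin-like adhesion protein, was at 2.94, 6.26 and 3.49 CPM against 0.263, 0.633 and 0.151 CPM (3.64 ± 0.67, adjusted p = 0.0169), a call lost without IFE replicate 1 (0.0819), IFE replicate 3 (0.0691) or Touchdome replicate 2 (0.0658). The other 4 of these genes kept the call without each library.

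Ion channel genes were called higher at 3 of 20 tested potassium channels and 2 of 23 tested sodium, calcium and chloride channels, with 0 lower, against 1.22% and 0.0798% of all tested genes. In the second list DESeq2 called 2 higher and 1 lower, against 446 and 84 of all tested genes. At an unadjusted p under 0.05, 2 were higher and 2 lower, against 6.96% and 3.71%. Besides Kcne4 these were Kcnk2, a mechanically gated leak channel, at 11.3, 18.3 and 26.2 CPM against 0.631, 1.69 and 1.59 CPM (3.82 ± 0.38, adjusted p = 0.0014), and Kcnma1, the large calcium-activated channel, at 1.47, 1.70 and 2.91 CPM against 0, 0.281 and 0.189 CPM (3.67 ± 0.58, adjusted p = 0.00747). These 3 kept the call without each library, and HF libraries were far higher than Touchdome for Kcnk2 (112, 119.7 and 92.2 CPM) and far lower for Kcne4. Cacna1c, a voltage-gated calcium channel, was at 4.79, 4.38 and 12.5 CPM against 0.473, 0.985 and 1.02 CPM (3.10 ± 0.46, adjusted p = 0.011), a call lost without IFE replicate 1 (0.0666), IFE replicate 2 (0.0618) or IFE replicate 3 (0.0516). Scnn1b, a subunit of the epithelial sodium channel, was at 2.56, 2.59 and 3.40 CPM against 0, 0 and 0.416 CPM (adjusted p = 0.0385) and lost the call when any library but IFE replicate 3 was left out (adjusted p = 0.063 to 0.102). The potassium channel list had a median log2 fold change of 0.79. Of 17 tested mechanosensory and TRP channel genes none was called with edgeR, and DESeq2 called 2 higher. At an unadjusted p under 0.05, 3 were higher and 1 lower, against 6.96% and 3.71% of all tested genes. Piezo2, the touch channel of Merkel cells and sensory neurons, had 1.09, 0.179 and 0.249 CPM in Touchdome and no count in IFE (adjusted p = 0.0853). Pkd1l2, a polycystin-like membrane protein that stood in no list, was at 6.71, 11.3 and 8.88 CPM against 0.473, 0.352 and 0.265 CPM and 0.777, 2.00 and 1.38 CPM in HF (4.61 ± 0.48, adjusted p = 0.000366).

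Several matrix genes were called higher. Of 24 tested collagens, of 30 listed, 3 were higher and 0 lower, and of 39 tested proteoglycan and matricellular genes, of 58 listed, 5 were higher and 0 lower, against 1.22% and 0.0798% of all tested genes. The 5 include Tnc, which the gate fixed. With the block 6 collagens were higher and 1 lower, and 8 of the other list higher and 2 lower, and DESeq2 called 8 and 14 higher and 1 and 2 lower. The shares of all tested genes were 1.87% higher and 0.445% lower with the block, and DESeq2 called 446 and 84 of them. At an unadjusted p under 0.05, 1 collagen and 3 genes of the other list were lower, against 3.71%. The medians were 0.82 and 0.89 on the log2 scale against 0.0048 over all tested genes. Col1a2, a chain of fibrillar collagen, was at 15.3, 18.6 and 21.5 CPM against 0.210, 0 and 0.681 CPM, with the Touchdome libraries close together (5.66 ± 0.44, adjusted p = 0.000182). Col5a1 was at 6.07, 6.97 and 14.0 CPM against 1.95, 1.76 and 2.31 CPM (2.15 ± 0.32, adjusted p = 0.00434) and Col14a1 at 0.703, 0.536 and 3.15 CPM against 0, 0.0703 and 0.0757 CPM (4.67 ± 0.93, adjusted p = 0.0261). Col14a1 lost its call when any of Touchdome replicate 3, IFE replicates 1, 2 and 3 and HF replicate 1 was left out (adjusted p = 0.0546 to 0.109). Bgn, the proteoglycan biglycan, was at 15.7, 25.3 and 48.0 CPM against 1.63, 3.45 and 5.22 CPM (3.08 ± 0.52, adjusted p = 0.0245), a call lost without IFE replicate 2 (0.143), IFE replicate 1 (0.0819) or HF replicate 1 (0.0549). Ccn2, a matricellular target of stretch and YAP signals, was at 146, 193 and 486 CPM against 28.8, 35.4 and 46.5 CPM and 2977, 2489.9 and 3463 CPM in HF. Its Touchdome replicate 3 was well above the others, and its call (2.90 ± 0.46, adjusted p = 0.023) was lost when any of IFE replicates 1, 2 and 3 and HF replicates 1 and 3 was left out (adjusted p = 0.0518 to 0.15). Fbln2, an elastic fibre protein, was called as well (adjusted p = 0.0139) and lost the call without IFE replicates 1 and 2 (0.0819 and 0.0604). Vwa2, a basement membrane protein outside the lists, was at 51.7, 85.5 and 86.0 CPM against 24.5, 26.3 and 20.9 CPM (1.64 ± 0.18, adjusted p = 0.000759).

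Fibroblast markers moved with the matrix genes. Their summed level over 10 genes was 46.2, 49.9 and 96.1 CPM in Touchdome, 0.894, 0.844 and 3.07 CPM in IFE and 84.2, 62.4 and 87.4 CPM in HF. Dcn and Col1a2, both counted above, made up most of it in Touchdome replicates 1 and 2. In HF most of it was Col1a2 (68.4, 54.1 and 73.3 CPM), with Dcn at 0, 0 and 0.0655 CPM, so near sums do not mean a like make-up. Of the other markers Lum was at 0 in every Touchdome library, Pdgfra was at 1.28, 0.447 and 1.66 CPM and Col1a1 at 2.43, 3.58 and 31.1 CPM. Col1a1, Col3a1 (2.49, 1.43 and 19.7 CPM), Pdgfrb (0, 0.179 and 1.99 CPM) and Fbn1 (0.320, 0.268 and 2.66 CPM) were thus highest in Touchdome replicate 3, while Dcn was lowest there. Dcn and Col1a2 remained called without that library (adjusted p = 7.64e-05 and 0.000234). With the replicate block Col3a1 was called too (adjusted p = 0.00448), and without the block it was at adjusted p = 0.308. The part of fibroblast RNA in the matrix calls was not tested.

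Several smaller groups among the higher genes were put together after their values were seen. Glycan-modifying enzymes were Chst11, a chondroitin sulfotransferase, at 5.18, 6.79 and 9.63 CPM against 0.316, 0 and 0.341 CPM (4.82 ± 0.45, adjusted p = 0.000182), and St6galnac6, a sialyltransferase, at 0.895, 3.49 and 3.99 CPM against 0.105, 0.141 and 0.151 CPM (adjusted p = 0.00369). St8sia2, the enzyme that builds polysialic acid on neural cell adhesion molecule, was at 1.92, 10.8 and 2.49 CPM against 0, 0.352 and 0.227 CPM (adjusted p = 0.0241), with replicate 2 far above the others and the call lost when any library but Touchdome replicate 1 and Touchdome replicate 3 was left out (adjusted p = 0.0512 to 0.113). Gxylt2, a glycosyltransferase that acts on Notch, was the only gene of the 196 whose call was lost with the replicate block (adjusted p = 0.0532 against 0.0469), and it lost the call when any library but Touchdome replicate 2 was left out (adjusted p = 0.0703 to 0.173). Cytoskeletal genes included Csrp2, a LIM protein of muscle, at 19.1, 35.8 and 19.8 CPM against 5.79, 6.68 and 7.42 CPM (1.90 ± 0.26, adjusted p = 0.00296). It was lower in HF than in either (3.56, 2.95 and 3.34 CPM). Synpo2, an actin-binding protein, was at 3.90, 7.69 and 8.97 CPM against 0.421, 0.211 and 0.871 CPM (3.64 ± 0.45, adjusted p = 0.0015), and Lmcd1, another LIM protein, at 3.13, 9.12 and 5.48 CPM against 0.210, 0.422 and 0.265 CPM (4.31 ± 0.48, adjusted p = 0.000597). Klk13, a serine protease and with Pi15 the calls among 23 tested serpins, kallikreins and Spink inhibitors, was at 3.77, 3.22 and 3.40 CPM against 0.105, 0.0703 and 0.189 CPM, with 0.366, 0.105 and 0.197 CPM in HF (4.67 ± 0.70, adjusted p = 0.00544). Ramp1, a subunit of the receptor for the sensory neuropeptide CGRP, was at 4.73, 7.96 and 5.89 CPM against 0.0526, 0.914 and 0.454 CPM (3.75 ± 0.64, adjusted p = 0.0128), a call lost without IFE replicate 3 (0.0684).

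Calls of growth factor genes below are from edgeR unless said otherwise, against 1.22% higher and 0.0798% lower of all tested genes. With DESeq2 4 IGF genes were higher and 2 lower, and 9 BMP genes higher and 0 lower. It called 5 Wnt receptor genes higher and 1 lower, against 446 higher and 84 lower over all tested genes. At an unadjusted p under 0.05, 6 IGF genes were higher and 2 lower, and 11 BMP genes higher and 1 lower. Of all tested genes 6.96% were higher and 3.71% lower at that level. Among 10 tested IGF genes 2 were higher: Igfbp2 at 7.22, 10.5 and 10.4 CPM against 0.473, 0.352 and 1.44 CPM (3.51 ± 0.47, adjusted p = 0.00351) and Igfbp5 at 25.8, 20.8 and 29.2 CPM against 3.21, 1.76 and 0.795 CPM (3.76 ± 0.55, adjusted p = 0.0187). Both encode secreted IGF-binding proteins, and Igfbp5 lost the call without IFE replicate 2 (0.111) or Touchdome replicate 3 (0.0648). Igfbp3, at 943 ± 102 CPM against 1326 ± 62.4 CPM, did not pass the test (adjusted p = 0.11). Fgf18, a ligand of the resting follicle, was the call among 14 tested FGF genes, at 1.66, 2.68 and 3.07 CPM against 0.368, 0.563 and 0.265 CPM (adjusted p = 0.0134), lost without IFE replicate 1 (0.0717) or IFE replicate 3 (0.0714). Of 14 tested TGF-beta genes Ltbp2, a binder of fibrillin, was called just inside the threshold (adjusted p = 0.0481), and of 25 tested BMP genes Id2, a target, and Smad9, a signal transducer, were called. Id2 was at 21.4, 25.1 and 48.4 CPM against 10.4, 12.5 and 12.0 CPM and Smad9 at 0.959, 1.25 and 3.65 CPM against 0.210, 0 and 0.303 CPM, each highest in Touchdome replicate 3. Ltbp2 lost its call when any library but Touchdome replicate 2 and Touchdome replicate 3 was left out (adjusted p = 0.0503 to 0.188), Id2 when any of IFE replicates 1, 2 and 3 and HF replicates 1, 2 and 3 was left out (adjusted p = 0.0512 to 0.151) and Smad9 when any library but Touchdome replicate 1 and Touchdome replicate 2 was left out (adjusted p = 0.0614 to 0.167). Among Wnt receptors and co-receptors, 18 tested, Ror2 was higher at 3.07, 3.22 and 4.48 CPM against 0.158, 0 and 0.114 CPM (5.07 ± 0.49, adjusted p = 0.000194) and Lgr6, given below, lower. Nkd1, a Wnt target that dampens the pathway, had 108 counts against 1, a ratio of 166 (95% counting interval 29.1 to 6604). With Lef1, a nuclear Wnt effector, it made 2 calls of 17 tested antagonists and targets. Lef1 stood at 0.575, 0.179 and 1.33 CPM against 0, 0.0703 and 0.0379 CPM and lost its call when any library but Touchdome replicate 2 was left out (adjusted p = 0.0602 to 0.152). None of 14 tested Wnt ligands was called with edgeR, with 4 lower and 0 higher at an unadjusted p under 0.05 and 1 lower with DESeq2, and their median was -0.34. Wnt10b was at 17.5, 23.2 and 19.1 CPM against 25.4, 36.4 and 44.2 CPM, at adjusted p = 0.135 and, with the replicate block, 0.028. Neither the 15 tested EGF genes nor the 13 tested Notch genes had a call with edgeR without the block, with 2 and 3 lower and 0 higher at an unadjusted p under 0.05, and DESeq2 called 0 and 2 lower. With the block 1 of each list was lower, the EGF receptor ligand gene Epgn (adjusted p = 0.0182 against 0.427) and Hes1. Hes1, a Notch target, was at 134, 65.4 and 123 CPM against 211, 156 and 211 CPM, at adjusted p = 0.339 and, with the block, 0.00406.

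**Figure D3:**
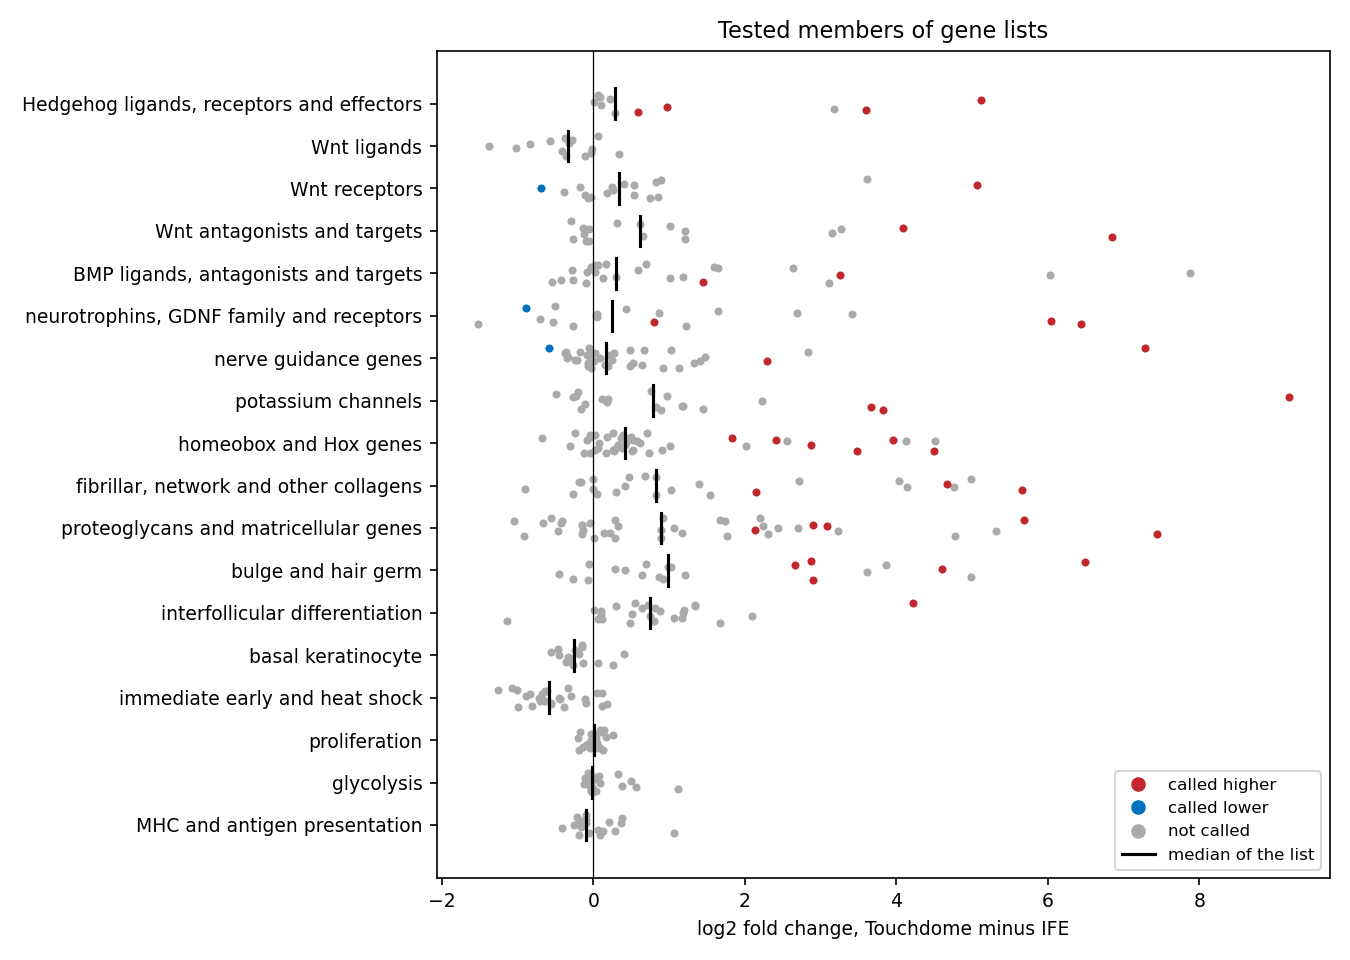
Log2 fold change of Touchdome minus IFE for each tested member of 18 gene lists (1 point per gene; red called higher, blue called lower, grey not called), with a black bar at the median of the tested members. Hedgehog, matrix, homeobox and bulge lists hold red points far to the right, while proliferation and glycolysis genes stay near 0 and immediate early genes have a median of -0.59.

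Genes of the follicle bulge and hair germ were partly higher. Of 23 listed genes 21 were tested, and 5 were called higher and 0 lower, against 1.22% and 0.0798% of all tested genes, with a median log2 fold change of 0.99. With the replicate block 10 were higher, against 1.87% of all tested genes, and 8 were higher without Touchdome replicate 3. The called genes were Krt24, Ccn2, Fgf18 and Lhx2, described above, and Cd34, a surface marker of bulge stem cells. Cd34 was at 20.1, 23.8 and 98.8 CPM in Touchdome against 1.42, 1.76 and 2.54 CPM in IFE, and HF stood at 712, 792 and 895 CPM. Its replicate 3 was far above the others. The adjusted p was 0.0356, it was 6.01e-06 without that library, and the call was lost when any of IFE replicates 1, 2 and 3 and HF replicates 1, 2 and 3 was left out (adjusted p = 0.0783 to 0.182). Lgr5, a stem cell receptor, was at 12.5, 11.0 and 52.7 CPM against 1.63, 1.48 and 2.84 CPM (adjusted p = 0.0784, and 0.0298 with the block), and Tbx1 at 16.4, 8.94 and 47.2 CPM against 1.05, 1.41 and 2.35 CPM (adjusted p = 0.0523, and 0.02 with the block). Il31ra, an interleukin receptor, and Adcy1, an adenylate cyclase, had the same kind of spread, at 7.22, 9.30 and 30.6 CPM and 4.41, 5.63 and 16.8 CPM in Touchdome, with 288, 309 and 364 CPM and 223, 214 and 250.4 CPM in HF. In IFE they stood at 0.368, 1.13 and 0.530 CPM and 0.894, 0.352 and 1.14 CPM, and Il31ra lost its call when any of IFE replicates 1, 2 and 3 and HF replicates 1, 2 and 3 was left out (adjusted p = 0.065 to 0.165) and Adcy1 when any of IFE replicates 1, 2 and 3 and HF replicates 1, 2 and 3 was left out (adjusted p = 0.0928 to 0.196). For Cd34, Lgr5, Tbx1, Il31ra and Adcy1 Touchdome replicate 3, which lay nearer to HF than the others, was the highest Touchdome library, and the part of follicle cells in these values was not tested. Krt15, a keratin of bulge and basal cells, was not higher, at 5629, 6552 and 5712 CPM against 7147, 10086 and 7336 CPM (adjusted p = 0.276).

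Among epidermal layer genes, basal and differentiation lists leaned in different directions with few calls. Of 25 tested interfollicular differentiation genes Tgm5 was called with edgeR without the block, against 1.22% of all tested genes. With the block 5 were higher, against 1.87%, and with DESeq2 9, against 446 of 15046. At an unadjusted p under 0.05, 11 were higher, against 6.96%. A log2 fold change above 0 was found in 24, against 50.8%, and the median was 0.74 against 0.0048. Krt10 and Krt1, keratins of the spinous layer, were at 4279, 5100.4 and 3736 CPM and 2459, 2353 and 1834 CPM in Touchdome and at 2958, 3515 and 2449 CPM and 1680.1, 1674 and 1300.5 CPM in IFE, both without overlap (adjusted p = 0.2 and 0.223). Krtdap, Sbsn, Dsc1 and Hrnr were called with the block (adjusted p = 0.024, 0.0103, 0.0182 and 0.0212) and not without it. Calm4, a calmodulin-like gene of differentiating keratinocytes, was at 191, 171 and 155 CPM against 77.5, 105 and 80.5 CPM and kept its call without each library (0.97 ± 0.14, adjusted p = 0.00434). None of 16 tested basal keratinocyte genes was called with edgeR without the block. With the replicate block 1 was lower, the integrin gene Itga3 (adjusted p = 0.0298 against 0.0571), against 0.445% of all tested genes. At an unadjusted p under 0.05, 2 were higher and 7 lower, against 6.96% and 3.71%. DESeq2 called 2 lower, against 84 of all tested genes, and the median was -0.25. Krt5 and Krt14, the basal keratins, were at 18930.0 ± 1386 and 9868 ± 1593 CPM in Touchdome and 23468 ± 1447 and 13590.1 ± 1407 CPM in IFE (adjusted p = 0.45 and 0.265). Krt6a, a wound and follicle keratin, was uneven within both groups, at 407, 35.0 and 291 CPM and 89.3, 9.50 and 83.7 CPM (adjusted p = 0.601), and Krt79 of the upper follicle was at 485, 374 and 1013 CPM against 193, 202 and 252 CPM (adjusted p = 0.137).

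The 12 lower genes changed little in size and were well expressed in both groups. Cdh4 (ENSMUSG00000000305), an R-cadherin, fell most, from 99.9, 96.0 and 101 CPM in IFE to 47.1, 49.9 and 47.2 CPM in Touchdome, with almost no spread within either group. Its log2 fold change was -1.04 ± 0.15 (adjusted p = 0.004), and HF libraries held 1.78, 3.27 and 1.83 CPM. Fbxo32, a ubiquitin ligase subunit known from muscle atrophy, was at 84.6, 109 and 78.4 CPM against 167, 159 and 164 CPM (-0.85 ± 0.15, adjusted p = 0.0116). Both genes kept the call without each library. Ngfr was at 27.0, 34.3 and 28.6 CPM against 42.5, 54.6 and 69.6 CPM (-0.89 ± 0.18, adjusted p = 0.0306). It lost the call when any of Touchdome replicates 1 and 3, IFE replicates 2 and 3 and HF replicate 3 was left out (adjusted p = 0.052 to 0.144). Lgr6, a Wnt co-receptor of follicle and epidermal stem cells, was at 154, 132 and 172 CPM against 253, 207 and 279 CPM, and HF was above both at 351, 326 and 369 CPM (-0.69 ± 0.14, adjusted p = 0.0241). Cdkn1a, the cell cycle inhibitor p21, was at 222, 193 and 213 CPM against 314, 285 and 299.8 CPM (-0.52 ± 0.11, adjusted p = 0.0361). For Lgr6 the call was lost when any of Touchdome replicates 1 and 2, IFE replicates 1 and 3 and HF replicate 1 was left out (adjusted p = 0.0518 to 0.117), and for Cdkn1a when any library but IFE replicate 2 was left out (adjusted p = 0.052 to 0.118). Slco2a1, a prostaglandin transporter, was at 242, 276 and 241 CPM against 398, 364 and 426 CPM, and Sema3c at 309.6, 315 and 277 CPM against 480.3, 387 and 483 CPM (-0.65 ± 0.11 and -0.58 ± 0.12). Ifngr1, a subunit of the interferon gamma receptor, Cpxm2 and Trim47 were lower too, with log2 fold changes of -0.69, -0.75 and -0.67. Their adjusted p-values were 0.0123 for Slco2a1, 0.0333 for Sema3c, 0.0481 for Ifngr1, 0.0206 for Cpxm2 and 0.0216 for Trim47. The call of Slco2a1 was lost without Touchdome replicate 3 (0.0532) or IFE replicate 3 (0.0627), and that of Cpxm2 without Touchdome replicate 1 (0.0544), IFE replicate 1 (0.0666) or IFE replicate 2 (0.0503). Sema3c lost it when any library but IFE replicate 2 was left out (adjusted p = 0.0554 to 0.161), Ifngr1 when any library but Touchdome replicate 2 was left out (adjusted p = 0.0582 to 0.179) and Trim47 when any of Touchdome replicates 1 and 3 and IFE replicates 1 and 3 was left out (adjusted p = 0.0594 to 0.102).

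**Figure D4:**
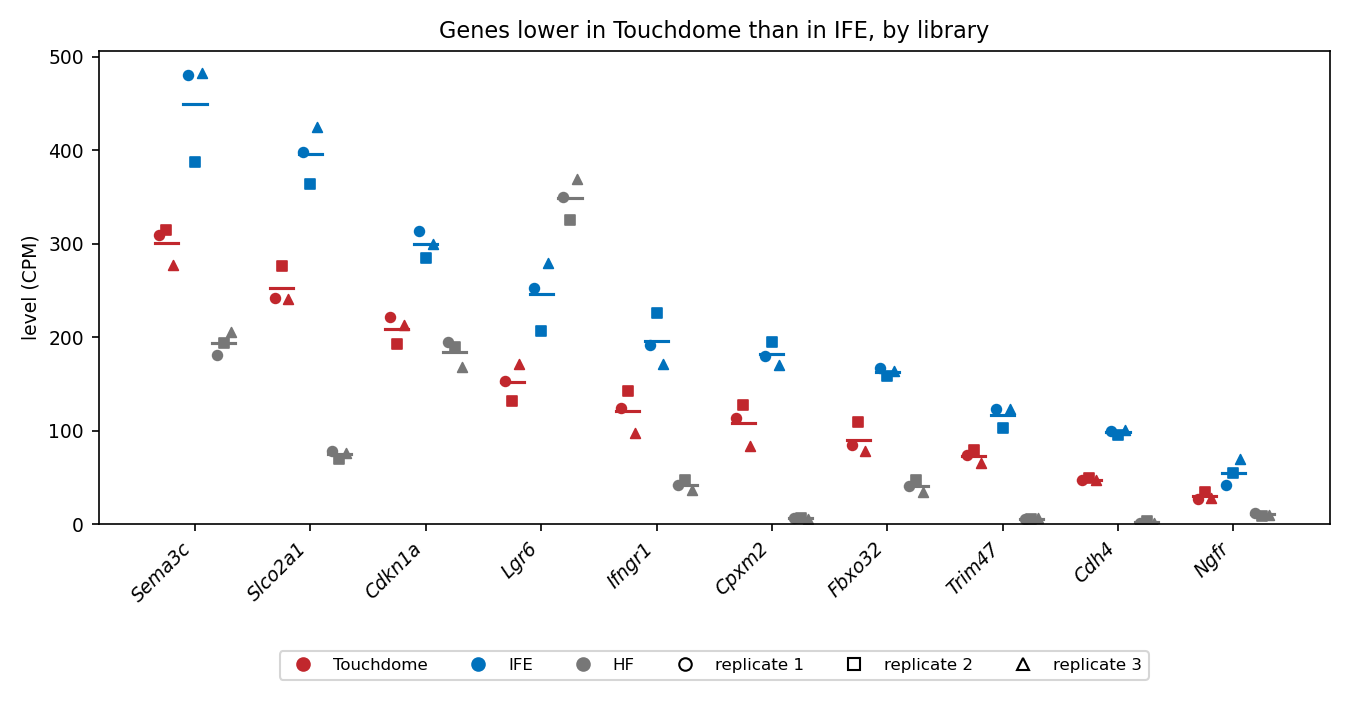
Level in each library (vertical axis, CPM from 0) of 10 of the 12 genes called lower in Touchdome, with circles, squares and triangles for replicates 1, 2 and 3 and short lines for group means. In every gene the 3 Touchdome points lie below the 3 IFE points, and HF is highest for Lgr6, while for the other 9 its mean lies below that of Touchdome.

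Immediate early and heat shock genes, which also respond to the handling of cells, gave lower calls with the replicate block and with DESeq2 and none in the edgeR fit without the block. None of the 26 tested genes was called there, and the median log2 fold change was -0.59. At an unadjusted p under 0.05, 9 were lower and 0 higher, against 3.71% and 6.96% of all tested genes. DESeq2 called 3 lower, against 84 of all tested genes. With the replicate block 7 of the 26 were called lower, against 0.445% of all tested genes. Atf3 stood at 1171, 496 and 1546 CPM in Touchdome replicates 1 to 3 and 2321, 1177 and 2920.2 CPM in IFE replicates 1 to 3, and Nr4a1 at 835, 459 and 1192 and 1969.8, 1047 and 2221 CPM. In both genes replicate 2 was lowest in each group, the groups overlapped, and each Touchdome library was lower than the IFE library of the same number. The adjusted p was 0.471 for Atf3 and 0.368 for Nr4a1, and with the block 0.0453 and 0.00189. Fosl1, an AP-1 subunit, was at 142, 38.5 and 123 CPM against 410.0, 94.5 and 222 CPM (adjusted p = 0.647, and 0.00365 with the block). The remaining genes called with the block were Ier2, Btg2, Jund and Dnajb1, at adjusted p = 0.0105, 0.0235, 0.045 and 0.00487, and at 0.0996, 0.509, 0.14 and 0.55 without it. Fos itself, the most abundant of them, was at 4574, 3119 and 6104 CPM against 7242, 5157 and 9043 CPM and was not called in either fit (adjusted p = 0.356 and, with the block, 0.0627).

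Proliferation and glycolysis genes gave no calls. The 25 tested proliferation genes had 0 calls with edgeR and with DESeq2, 0 at an unadjusted p under 0.05, and log2 fold changes from -0.20 to 0.26. Mki67, a marker of cycling cells, was at 612, 312 and 488 CPM against 532, 239 and 405 CPM, and Top2a at 273 ± 48.7 and 273 ± 49.0 CPM. The 22 tested glycolysis genes also had 0 calls with either tool and 0 at an unadjusted p under 0.05, with Gapdh at 918 ± 154 and 939 ± 74.5 CPM. The same counts of 0 held for the 19 tested antigen presentation genes. The 20 tested interferon response genes had 0 calls with edgeR and with DESeq2, and 2 higher and 1 lower at an unadjusted p under 0.05. Over all tested genes 6.96% were higher and 3.71% lower at an unadjusted p under 0.05. The counts in these lists do not show that single genes were equal.

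Markers of Merkel cells, the sensory partners of touch domes, were at low levels. Their summed level over 15 genes was 11.4, 2.59 and 3.57 CPM in Touchdome against 1.05, 0.703 and 0.416 CPM in IFE, and 17.3 to 35.9 CPM in HF. In HF most of it was Cck, at 11.9, 14.5 and 29.6 CPM. The members Atoh1, Sox2, Isl1, Chga, Gfi1, Rab3c and Vip had 0 counts in every Touchdome library. Atoh1, Sox2, Chga, Rab3c and Vip had 0 in every IFE library as well. All remaining members had a higher mean in Touchdome than in IFE, among them Insm1 at 0.256, 0.358 and 0.415 CPM against 0, 0 and 0.151 CPM. Krt8, a simple keratin of Merkel cells, was the call among the 4 tested, at 7.16, 0.804 and 0.996 CPM against 0.105, 0 and 0.0757 CPM, and most of its level came from Touchdome replicate 1. The adjusted p was 0.0225, and the call was lost when any of Touchdome replicate 1 and IFE replicates 1, 2 and 3 was left out (adjusted p = 0.0683 to 0.0992), with 0.0967 without Touchdome replicate 1. Krt18, its partner keratin, was at 1.98, 0.268 and 0.332 CPM in Touchdome against 0.158, 0.141 and 0.0379 CPM in IFE. Krt20 was at 0.384, 0.268 and 0 CPM in Touchdome and had no count in IFE. Endothelial markers summed to 10.9, 7.33 and 12.0 CPM in Touchdome and 3.10, 1.97 and 2.23 CPM in IFE, with Flt1 called higher at 3.26, 2.95 and 4.15 CPM against 0.421, 0.281 and 0.416 CPM (adjusted p = 0.032), a call lost when any of Touchdome replicates 1 and 3 and IFE replicates 1, 2 and 3 was left out (adjusted p = 0.0632 to 0.111). Pecam1 was at 1.60, 1.16 and 1.08 CPM and 0.631, 0.774 and 0.681 CPM. Cdh5, which was not tested, was at 0.831, 0.626 and 0.581 CPM in Touchdome and had no count in IFE. All members of the endothelial list had a higher mean in Touchdome than in IFE. Melanocyte markers were highest in Touchdome replicate 3, at 18.3, 16.3 and 53.5 CPM against 15.3, 10.6 and 14.2 CPM. Of 6 tested genes 0 were called by edgeR, with 1 higher with the block and 2 with DESeq2. At an unadjusted p under 0.05, 3 were higher, against 6.96% of all tested genes. Langerhans cell and macrophage markers ranged from 171 to 364 CPM in Touchdome and 135 to 286 CPM in IFE, and T cell markers from 16.7 to 21.3 and 11.1 to 15.4 CPM. In neither of these lists was a gene called by edgeR or DESeq2 or at an unadjusted p under 0.05. Schwann cell and nerve markers summed to 301 to 322 CPM in Touchdome and 297 to 360 CPM in IFE, and Erbb3 and Mbp, which keratinocytes also express, made up most of it. Muscle, red blood cell and hair shaft markers stayed below 4 CPM in all 6 libraries.

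**Figure D5:**
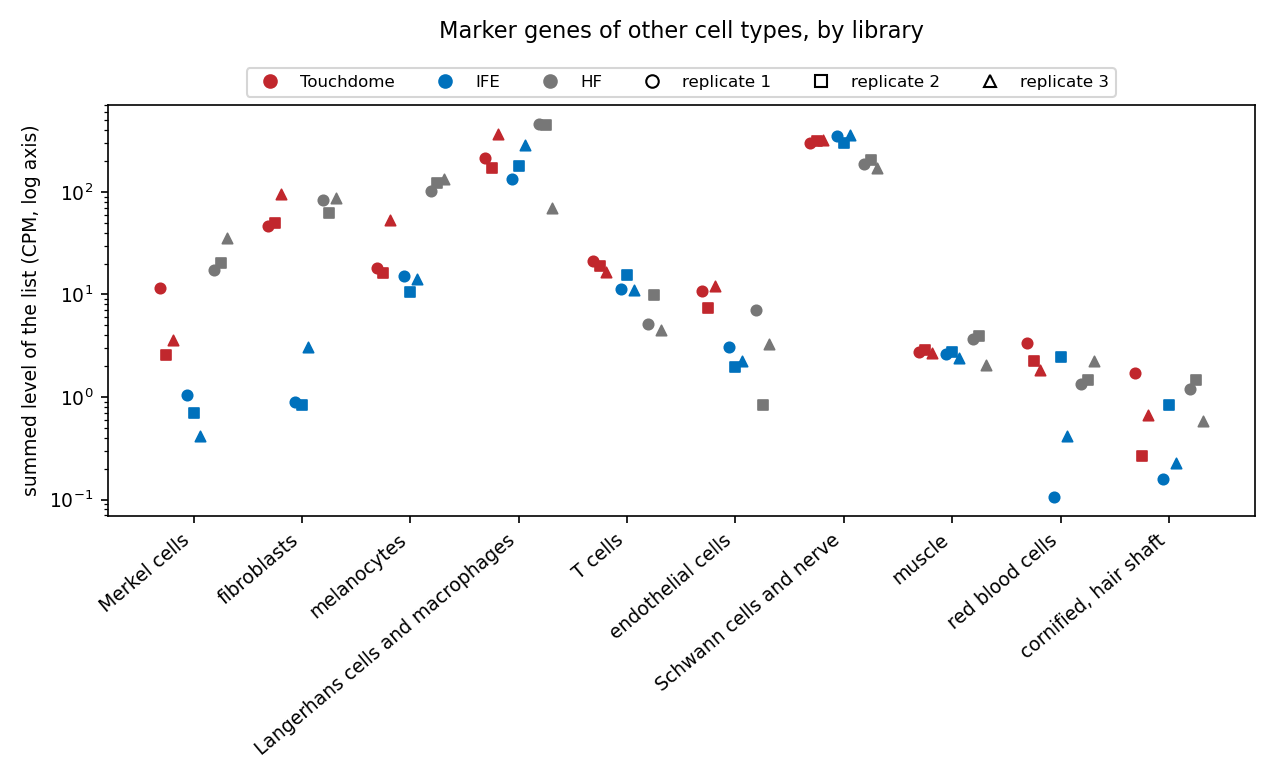
Summed level of the marker genes of 10 other cell types in each library (vertical axis, CPM on a log scale), with circles, squares and triangles for replicates 1, 2 and 3. Fibroblast sums in the 3 Touchdome libraries (46.2 to 96.1 CPM) lie near HF and far above IFE, but the HF sum is mostly Col1a2 with almost no Dcn. Schwann cell, muscle and T cell sums lie within 2-fold of IFE.

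At the threshold itself, Ltbp2, Ifngr1 and Hoxd8 lay just inside with adjusted p = 0.0481, and Gpm6b, Grik1 and Plppr4 just outside with 0.0523. Gpm6b, a neuronal membrane protein, was at 3.07, 5.45 and 3.82 CPM against 1.21, 0.633 and 0.909 CPM, and Plppr4, a phosphatase-related protein of synapses, at 1.60, 1.52 and 2.32 CPM against 0.210, 0 and 0.114 CPM.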

How the data were processed

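The authors deposited 1 table with an expected count and a TPM per gene and library. Per the submitters' processing notes the tools named were STAR 2.7.9a, RSEM 1.3.3 and DESeq2 1.38.2 with build mm39. What each tool did, which annotation was used and whether counting used strand is not given in the sources used here, so antisense and overlapping genes, and near-identical gene copies, remain uncertain. The deposited expected counts, whole in 92.5% to 94.6% of rows, were rounded. Rows without a gene symbol (0.673% to 2.13% of counts) were kept under their gene identifier. Genes that passed filterByExpr (minimum count 10, minimum total 15) were scaled by TMM and fitted with edgeR 4.0.16 (robust quasi-likelihood, R 4.3.3) over all 9 libraries, and Touchdome was tested against IFE with Benjamini-Hochberg adjustment at 0.05. The fit was tested on simulated data, in which libraries were independent and shared no effect of the replicate number. That test does not cover libraries of the same number that deviate together. The deposited TPM values served to compare levels between genes.

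Deviations from the group means correlated by 0.200, 0.239 and 0.242 between Touchdome and IFE libraries of the same number and by -0.168 to -0.0362 between different numbers. Deviations cancel out within a group, so the negative values follow from the positive ones and add no evidence. Given the positive values a number may mark a shared animal or sort, but the labels do not say so. The main fit did not use the number. Alternatives were other scalings and filters, Touchdome and IFE libraries alone, the replicate block, DESeq2 1.42.0, limma 3.58.1 on log2 TPM, non-robust estimation and leaving out each library. Fits of the block without Touchdome replicate 3 or without HF were chosen after seeing the data. Libraries of a group differed by more than counting noise, so no pair was merged as a repeat of the same library.

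Named genes are the gate and marker genes, members of the touch dome, Hedgehog, neurotrophin and Merkel lists, the 15 higher genes of greatest fold at 10 CPM or more, the lower genes, the 10 higher genes of smallest p, the 10 of highest TPM, up to 6 called and 3 uncalled genes per list, called transcription regulators and channels, and 3 genes on each side of the threshold. Some genes that meet these rules are not reported here, and the gene lists and the plot of lower genes leave them out. Genes named beyond these were chosen after their values were seen. The comparison, the gene lists and the rules were chosen with earlier results of these data known. Promoter sequences are from RefSeq, build GRCm38.p6, and were matched by symbol.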

Additional observations from a re-analysis of the deposited data

How the results depend on the processing

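The 196 called genes kept their direction in all 3706 values from 19 other fits, and 831 of these values lost the call. With Touchdome and IFE libraries alone 100 genes were higher, 94 of them at least 2-fold, and 5 lower. The replicate block gave 282 higher and 67 lower genes, and of the 196 calls it ended that of Gxylt2 and no other. Added after seeing the data, the block with Touchdome and IFE alone gave 372 higher (274 at least 2-fold) and 134 lower, and the block without Touchdome replicate 3 gave 151 higher and 21 lower. DESeq2 called 446 higher (379 at least 2-fold) and 84 lower. limma called 100 higher (97 at least 2-fold) on log2(TPM + 1) and 145 on log2(TPM + 0.1), with 0 lower in both, where 164 and 159 genes were lower at an unadjusted p under 0.05. Without a filter on low counts 49 genes were lower. Leaving out each library in turn gave 105 to 216 higher genes, 96 to 208 at least 2-fold and 4 to 29 lower. The cause of these shifts was not tested, beyond the smaller number of libraries in some fits. With 3 libraries per group and 0-count limits of 0.114 to 0.268 CPM, small changes and genes near the counting limit were not resolved.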
